A study of Mus musculus with 4 samples.

Results

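Old and young dermal white adipose tissue (dWAT), the fat layer around the lower ends of hair follicles (HFs), was compared in anagen, the growth phase of the hair cycle, by RNA sequencing. The libraries were OAD (old, anagen dWAT) and YAD (young, anagen dWAT), which are 2 of the 4 libraries of the study. The others, OTD and YTD, are old and young dWAT in telogen, the resting phase. All mice were C57BL/6, the old mice 18 months and the young mice 2 months of age, and no transgene or drug was used. Anagen was induced by removing the hair, and dWAT was microdissected away from the rest of the skin. The study's methods give several mice per group and there is 1 library per group, so OAD and YAD are taken as 1 pool each, without replicates. A difference between them carries no error and no p-value, and describes these pools. The age field of the sample labels gives 2 months for OAD and 18 months for YTD, against the titles and descriptions, which call OAD and OTD old; the titles were followed. The day of harvest after hair removal was not given in the sources used here, so age and the stage of anagen reached cannot be told apart. The sex of the mice was not given either. Deposited FPKM of the Y-linked gene Ddx3y was 7.39 in OAD and 12.3 in YAD, so the pools may differ in the sex of their mice, which cannot be told apart from age.

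The genes compared were those with a deposited FPKM (fragments scaled by the length of the feature and the mapped fragments of the library) of 5 or more in OAD or YAD. Genes on chromosomes MT, X and Y and genes with a symbol starting Krt (hair and skin keratins and keratin-associated proteins) were left out, and the remaining FPKM were rescaled to a sum of 1000000 in each library. This left 8952 of 22913 genes. The change of a gene is log2(rescaled FPKM + 1) in OAD minus that in YAD, and levels below are rescaled FPKM. On this scale the change of a gene with a low level is understated.

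In anagen the HF grows down through the dermis into dWAT, its matrix cells divide and build the hair shaft, and melanocytes in the bulb pass pigment to it. Fibroblasts of the dermis and of the fat lay down collagen, and the dermal papilla at the base of the bulb signals to the matrix through Wnt, FGF and BMP ligands. dWAT thickens in anagen and shrinks again as the cycle ends. In bulk tissue, fewer cells of a type and less RNA per cell cannot be told apart.

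Of the 8952 genes, 55 were higher in OAD by at least 1 on the log2 scale, which is 0.614% of the genes, and 58 were lower by at least 1, which is 0.648%. Rose and fell are used below only for these 113 genes. With an FPKM of 5 or more required in both libraries, 26 of the 55 and 37 of the 58 remained. The others entered the comparison only through the library in which they were high. Among them were Sfrp2, Vcan, Col14a1, Mfap4, Loxl2, Fgf7, Mc1r, Lor, Kprp, H2-Q6, H2-Q7, Atf3, Dock3 and S100a9. The numbers of list genes that rose or fell given below rest in part on such genes. The median change of all genes was -0.11, and 70.3% of genes lay below 0, so the changes of gene lists are read against that median. Without rescaling, the median of all genes moved up by 0.12 and the calls became 64 higher and 34 lower, so the share of lower genes among the calls went from 51.3% to 34.7%. With median-of-ratios rescaling the median moved up by 0.14 and the share was 31.3%. With no genes dropped before rescaling it moved to -0.21. Under at least 1 of these scalings the median of 23 of 53 lists changed sign, each of them between -0.12 and 0.04 here, the BMP, angiogenesis, Schwann cell, lipid, cholesterol, desmosome, complement and stress lists among them. The change of 92.6% of the genes was smaller than 0.5 in size. Just past the threshold lay Grb14 at 1.004 and Tenm4 at -1.01, and just short of it Adrb3 at 0.99 and Ltbp1 at -0.997. The plot of change against level shows the 113 genes.

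**Figure D1:**
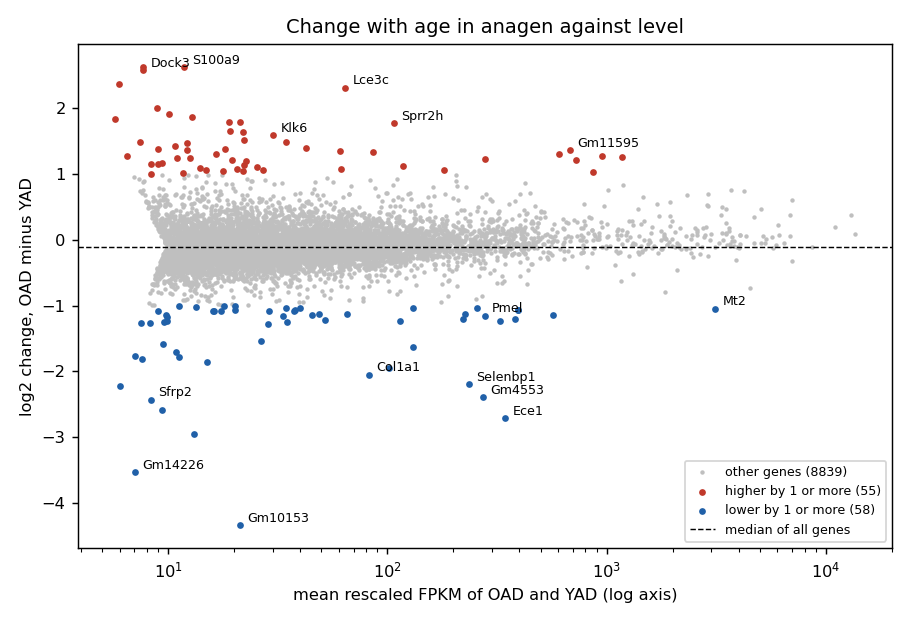
Change in log2(rescaled FPKM + 1), OAD minus YAD (y axis), against the mean rescaled FPKM of both libraries (x axis, log scale), 1 point a gene. The 55 genes that rose (red) and the 58 that fell (blue) stand off a band around the median of all genes at -0.11 (dashed).

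The tissue was checked by markers of its cell types. Adipocyte markers were abundant in both libraries. The adipokine gene Adipoq was at 195 in OAD and 158 in YAD, the lipid droplet gene Plin1 at 62.3 and 59.9, and the fatty acid carrier gene Fabp4 at 2184 and 1694. Genes of other compartments were abundant too. The inner root sheath gene Tchh was at 8464 in OAD and 5550 in YAD, against 56.1 in OTD and 77.2 in YTD, and the muscle creatine kinase gene Ckm was at 3758 and 2886. Krt genes held 15.1% of all deposited FPKM in OAD and 13.9% in YAD, and mitochondrially encoded genes 18.3% and 14.4%. T cell markers Cd3d, Cd3e and Cd3g were at most 0.237 in both anagen libraries. The anagen libraries thus held HF, muscle and fat RNA together, and the part of each in the changes below was not tested.

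Collagens and the proteins that build and bind their fibres were lower in OAD. The fibrillar collagens form the load-bearing fibres of dermis and fat septa. Of 6 compared, all were lower and 4 fell, with a median change of -1.40. The other 5 of the 11 listed were under the FPKM minimum. The median was -1.11 with a minimum of 1, -1.78 with 5 or more in both libraries and -0.93 without a filter. Col1a1, a chain of type I collagen, was at 31.3 in OAD, 133 in YAD, 165 in OTD and 198 in YTD, a change of -2.05. Col1a2, its partner chain, was at 41.1, 161, 309 and 260 in the same order, a change of -1.95. Col3a1, of type III collagen, was at 63.4, 197, 394 and 338, a change of -1.62. In all of these genes OAD was the lowest of the 4 libraries and YAD the second lowest. Col5a1, which helps to start type I fibrils, fell by 1.17, and Col5a2 was lower with -0.93.

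The other collagens showed the same direction, 11 of 11 being lower and 2 falling, with a median of -0.56. Col14a1, which binds the surface of fibrils, was at 4.25 in OAD, 14.7 in YAD, 19.95 in OTD and 13.6 in YTD, a change of -1.58. Of the chains of type VI collagen, which links cells to the matrix, Col6a2 fell with -1.08, and Col6a3 and Col6a1 were lower with -0.98 and -0.93. Genes that fold, modify and cross-link collagen had a median of -0.33, with 15 of 16 lower and 1 that fell. That gene was Loxl2, a lysyl oxidase that cross-links fibres, at 5.72 in OAD and 13.8 in YAD, a change of -1.14. Pcolce, which enhances the trimming of procollagen, was lower with -0.94. The exception was Plod2, a lysyl hydroxylase, with 0.38.

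Matrix proteins other than collagen followed. The small leucine-rich proteoglycans, which regulate the width of fibrils, were lower in 6 of 6, with a median of -0.54 and none past the threshold. Lum was at 11.3 in OAD and 23.4 in YAD, and Dcn at 162 and 220. In telogen the median of the same genes was 1.03, with 5 of 6 higher in old mice, so the direction was the opposite. Of 12 elastic fibre genes 11 were lower and 1 fell. That gene was Mfap4, a microfibril-associated glycoprotein, at 2.67 in OAD, 11.5 in YAD, 33.8 in OTD and 29.2 in YTD, a change of -1.77. Eln, the gene of elastin, was lower with -0.88. Basement membrane genes were lower in 10 of 10, with a median of -0.33, led by Nid1 with -0.74.

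Genes that mark fibroblasts and fat progenitors had a median change of -0.44, with 11 of 14 lower, against 0.64 and 14 of 14 higher in telogen. Postn, the matricellular protein periostin, was at 23.8 in OAD, 51.4 in YAD, 71.9 in OTD and 45.4 in YTD, a change of -1.08. Without rescaling the falls of Col5a1, Col6a2, Loxl2 and Postn came short of the threshold, at -0.96, -0.92, -0.93 and -0.93. Cd248, Fn1 and Pi16 were lower with -0.92, -0.87 and -0.83. The plot of list members shows how far these lists lay from the median of all genes.

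**Figure D2:**
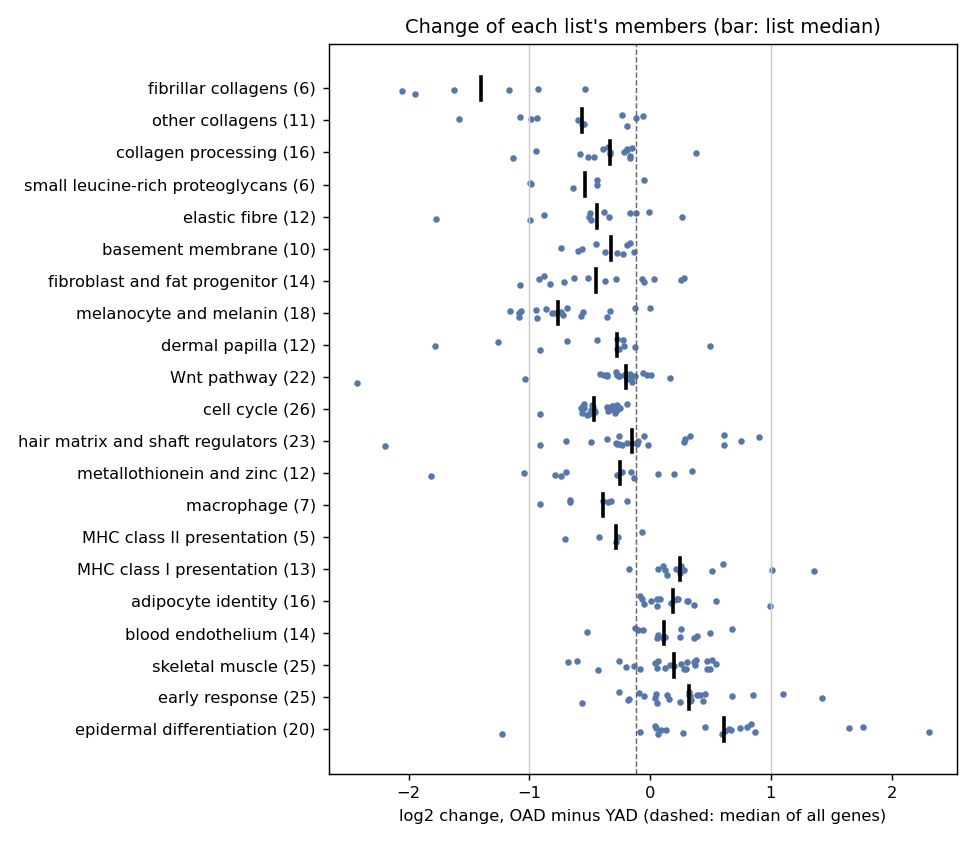
Change in log2(rescaled FPKM + 1), OAD minus YAD (x axis), of each gene compared in 21 lists (rows, number of genes in brackets). Black bars are list medians and the dashed line the median of all genes. The fibrillar collagens lie furthest to the left, with a median of -1.40, and epidermal differentiation furthest to the right, with 0.61.

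Other genes that fell belonged to several lists or to none. Ece1, the enzyme that activates endothelins, was at 90.6 in OAD, 598 in YAD, 707 in OTD and 887 in YTD, a change of -2.71. It was high in 3 libraries and low in OAD. Its substrates Edn1 and Edn2 and the receptors Ednra and Ednrb did not pass the threshold, with changes of 0.29, 0.01, -0.35 and -0.57. Selenbp1, a selenium-binding protein, was at 84.0 in OAD, 389 in YAD, 84.2 in OTD and 60.6 in YTD, a change of -2.20, so that YAD alone was high. Apoc4, a lipoprotein component, was at 2.25 in OAD, 24.03 in YAD, 5.96 in OTD and 11.002 in YTD, a change of -2.94. Actc1, cardiac actin, was at 5.96 in OAD and 24.1 in YAD, a change of -1.85. Gm14226 was at 0.288 in OAD, about 7.76 fragments, and 13.9 in YAD, a change of -3.53. It lies inside the span of the agouti gene (a) on the same strand, so their fragments may be shared. Gm10479, at 1.49 and 10.6, rested on about 6.19 fragments in OAD.

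Pigment genes were lower in OAD. Melanocytes make melanin from tyrosine with Tyr, Tyrp1 and Dct on fibres of Pmel. Of 18 genes compared, 17 were lower and 4 fell, with a median of -0.76. Pmel was at 171 in OAD, 384 in YAD, 2.79 in OTD and 2.36 in YTD, a change of -1.16. Slc45a2 and Oca2, transporters of the melanosome, fell with -1.08 and -1.07, and Mc1r, the receptor for melanocortin, with -1.08. Tyr, the rate-limiting oxidase, was at 26.9 in OAD, 52.5 in YAD, 0.412 in OTD and 0.702 in YTD, a change of -0.94. Tyrp1 was at 120 and 232 in anagen and Dct at 191 and 347, changes of -0.94 and -0.86. In each of these 7 genes the lower anagen library was at least 19.6 times the higher telogen library. Without rescaling Slc45a2, Oca2 and Mc1r were short of the threshold, at -0.91, -0.90 and -0.88. Mitf, the regulator of the lineage, lay near the median of all genes with -0.13, and Gpnmb was at 294 in OAD and 293 in YAD.

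The promoters of Tyr, Tyrp1 and Dct are shown because they share a letter string that the regulator Mitf is known to bind, the M-box. They are taken from RefSeq (GRCm38.p6), written 5′ to 3′ on the strand of the gene, with CATGTG in capitals. Tyr lies at chr7:87493513-87493560 (minus strand, -48 to -1 from the start site), Tyrp1 at chr4:80834140-80834199 (plus strand, -73 to -14) and Dct at chr14:118052364-118052423 (minus strand, -177 to -118). These start sites are those of RefSeq. The deposited interval of Tyrp1 starts at chr4:80834123, so it contains the stretch shown, and that of Tyr ends at chr7:87493411.
Tyr: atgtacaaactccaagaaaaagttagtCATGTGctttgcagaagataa
Tyrp1: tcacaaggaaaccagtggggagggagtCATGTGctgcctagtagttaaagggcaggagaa
Dct: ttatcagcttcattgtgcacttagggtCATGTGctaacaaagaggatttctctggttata
CATGTG or its reverse complement stood in the 250 bases before a start site in 7 of the 13 pigment genes with a promoter in the table, and in 8.53% of 7021 genes compared. The longer string TCATGTGCT, chosen after these sequences were seen, stood in 3 of the 13 and in 6 of the 7021. A match is a description of the letters and says nothing of binding in these samples.

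Signals around the HF were lower for some members. Of 12 dermal papilla genes 11 were lower and 2 fell, with a median of -0.27. Vcan, a large proteoglycan of the papilla, was at 4.51 in OAD, 17.9 in YAD, 6.51 in OTD and 9.38 in YTD, a change of -1.78. Fgf7, a growth factor for keratinocytes, was at 4.03, 11.03, 14.7 and 5.70, a change of -1.26. In both genes OAD was the lowest of the libraries. Rspo4, a Wnt agonist, was higher with 0.50. Of 22 Wnt pathway genes 20 were lower and 2 fell, with a median of -0.20, close to that of all genes. Sfrp2, a secreted Wnt modulator, was at 1.93 in OAD, 14.7 in YAD, 15.3 in OTD and 8.79 in YTD, a change of -2.43. Wnt10b, a ligand of the growing HF, was at 25.8, 54.0, 0.381 and 0.778, a change of -1.04, and -0.89 without rescaling. Axin2, a target of the pathway, was lower with -0.42. Sostdc1, an inhibitor of Wnt and BMP, was at 13.1 in OAD and 39.8 in YAD, a change of -1.54.

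BMP pathway genes had a median of -0.08, with 12 of 18 lower and none past the threshold. Over all genes 70.3% were lower, and 9 of the 18 genes of the BMP list lay below the median of all genes. Sostdc1, which fell, was not in that list. The ligand Bmp2 was at 29.4 in OAD and 24.5 in YAD, a change of 0.25. Fstl1, a secreted BMP antagonist, was lower with -0.84 and the target Id3 with -0.55. Of 11 FGF pathway genes 7 were lower, 6 of them below the median of all genes, and 1, Fgf7, fell. Fgf5, which ends anagen, was at 20.4 in OAD, 9.84 in YAD, 0.882 in OTD and 0.730 in YTD, a change of 0.98, just short of the threshold, and 1.03 without rescaling. Aldh1a3, an enzyme that makes retinoic acid, was at 20.2 in OAD and 46.2 in YAD, a change of -1.16. Fgf10, Nrcam, Wnt8a and Dkk2 were under the FPKM minimum in both libraries. Fgf10 was at 1.98 in OAD and 5.02 in YAD, Nrcam at 0.864 and 5.61, and Dkk2 at 1.63 and 0.555.

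Genes of the hair matrix, shaft and root sheath, regulators together with structural and enzyme genes, had a median of -0.15, near that of all genes. Of these, 16 of 23 were lower and 7 higher, and 12 of the 23 lay below the median of all genes. Of them 1, Selenbp1, fell. Hoxc13, which drives hair keratin genes, was at 231 in OAD and 297 in YAD, and Shh, a signal of the matrix, at 23.7 and 33.7. Trps1 was lower with -0.91. In the other direction Padi1, which citrullinates proteins of the root sheath, was at 109 in OAD and 57.8 in YAD, a change of 0.90, Crym at 1274 and 757 with 0.75, and Tchh was higher with 0.61. Cell cycle genes were lower in 26 of 26, each below the median of all genes, though none passed the threshold and the list median was -0.46. Ccnd1, a cyclin of the G1 phase, was at 45.7 in OAD and 87.1 in YAD, a change of -0.92, Mki67 at 35.6 and 52.6, and Cdc20 at 42.9 and 64.5. Follicle stem cell genes had a median of -0.06, with Sox9 highest at 0.54.

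**Figure D3:**
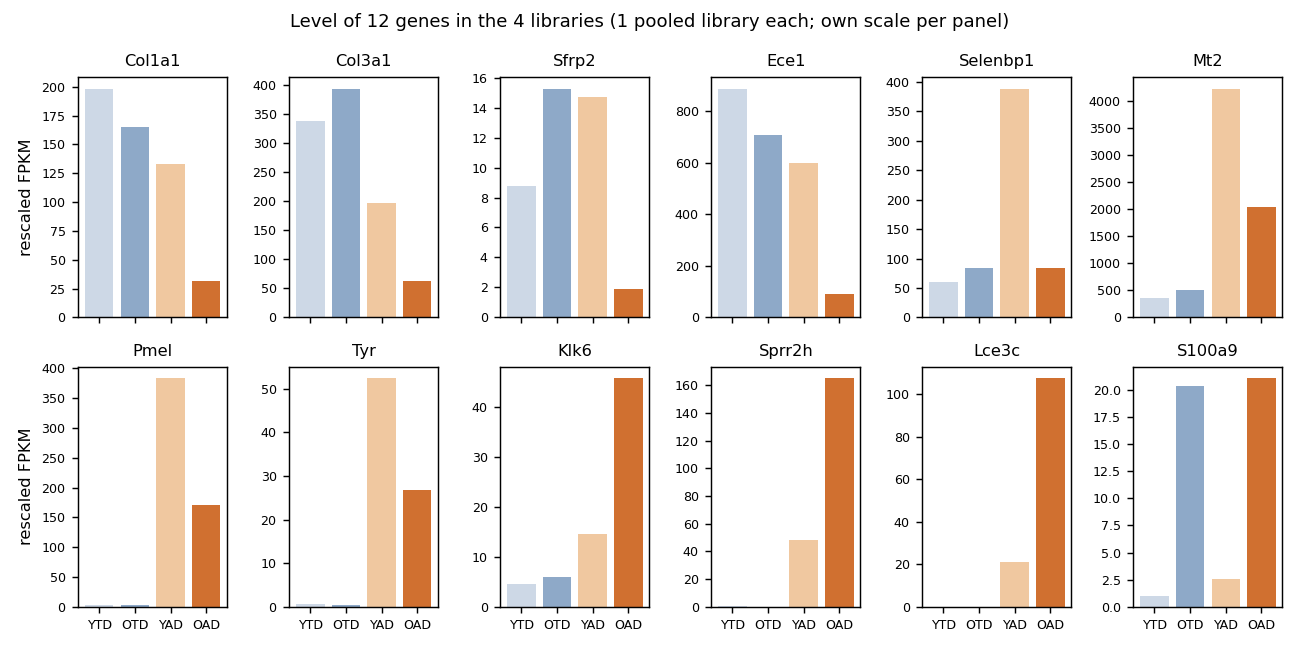
Rescaled FPKM (y axis, from 0, own scale in each panel) of 12 genes in YTD, OTD, YAD and OAD (bars, 1 pooled library each). OAD is the lowest bar for Col1a1, Col3a1, Sfrp2 and Ece1, YAD the highest for Selenbp1, Mt2, Pmel and Tyr, and OAD the highest for Klk6, Sprr2h, Lce3c and S100a9.

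Genes of late epidermal differentiation were higher in OAD. They encode proteins that cross-link into the cornified envelope of skin and of the sheath around the hair. Of 20 compared, 18 were higher, 3 rose and 1 fell, with a median of 0.61. Their telogen median was -0.19, but several were near 0 in OTD and YTD, so it is not read as a change with age. Lce3c, a late cornified envelope protein, was at 107 in OAD, 20.9 in YAD and listed at 0 in OTD and YTD, a change of 2.31. Sprr2h, a small proline-rich protein, was at 165 in OAD, 47.9 in YAD, 0 in OTD and 0.403 in YTD, a change of 1.77. Kprp, a keratinocyte proline-rich protein, was at 29.5, 8.75, 0.0897 and 0.318 in the same order, a change of 1.64. These genes and Lce1a2, which was singled out after its values were seen, rose within one stretch of chromosome 3, chr3:92385685-92945733. Lor, the gene of loricrin, went the other way, at 5.52 in OAD and 14.3 in YAD, a change of -1.23. Of 4 kallikrein list genes 3 were higher. Klk6, a serine protease, was at 45.7 in OAD, 14.6 in YAD, 5.95 in OTD and 4.51 in YTD, a change of 1.59, Klk7, which sheds cornified cells, was higher with 0.93, and their inhibitor Spink5 with 0.88. Desmosome genes, which hold keratinocytes together, had a median of 0.03. Without features shorter than 500 bp the epidermal median was 0.37.

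The filter on names did not remove all hair proteins. Keratin-associated proteins (KAPs), the sulphur-rich proteins that embed keratin in the hair shaft, lie in clusters. Of the genes compared, 33 have names starting Gm and lie inside those clusters or just beside them. Those just beside, Gm10272, Gm10024, Gm10142 and Gm4553, are counted as part of the clusters below. These 33 genes accounted for 8 of the 55 genes that rose and 10 of the 58 that fell. They were singled out after the values were seen. Their coding sequences, from GENCODE M21, were rich in the cysteine codons TGT and TGC. The median share of codons was 37.4% in the cluster on chromosome 11, 30% on chromosome 10, 38.4% on chromosome 7 and 11.7% on chromosome 16, against 1.82% over all genes with a coding sequence. Of the 32 genes with 20% or more, 29 lay in the clusters on chromosomes 7, 10 and 11. The first 120 coding bases of 1 or 2 genes each from the clusters on chromosomes 11, 10 and 7 are shown to make this visible, with cysteine codons in frame in capitals.
Gm11563: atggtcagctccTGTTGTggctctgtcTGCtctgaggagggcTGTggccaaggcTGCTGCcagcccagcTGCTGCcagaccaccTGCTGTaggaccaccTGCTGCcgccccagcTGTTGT
Gm11595: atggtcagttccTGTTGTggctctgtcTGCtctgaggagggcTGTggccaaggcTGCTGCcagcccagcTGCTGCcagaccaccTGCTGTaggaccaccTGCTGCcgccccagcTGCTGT
Gm3233: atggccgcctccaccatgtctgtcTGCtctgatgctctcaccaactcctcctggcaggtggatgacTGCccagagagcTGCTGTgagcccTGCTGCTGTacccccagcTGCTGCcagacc
Gm4553: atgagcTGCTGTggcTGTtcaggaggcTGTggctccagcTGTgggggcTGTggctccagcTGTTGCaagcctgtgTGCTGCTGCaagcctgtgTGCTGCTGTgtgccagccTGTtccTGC
Gm11563 lies at chr11:99657949-99658960, Gm11595 at chr11:99771714-99772913, Gm3233 at chr10:77758990-77759682 and Gm4553 at chr7:142165024-142165737 (GRCm38), as deposited. The coding sequence of Gm4553 is that of a longer GENCODE model than the deposited interval, with its coding part at chr7:142164838-142165689. The genes of a cluster resemble each other, as the chromosome 11 pair shows, so that fragments could be split between them and the value of a single gene is uncertain.

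The clusters moved in different directions. On chromosome 11, 13 of 15 genes were higher and 8 rose, with a median of 1.02 and a summed level of 16223 in OAD and 9537 in YAD. Gm11563 was at 1660 in OAD, 696 in YAD, 2.74 in OTD and 5.21 in YTD, and Gm11595 at 976, 380, 2.06 and 2.91. On chromosome 10, 11 of 11 were lower and 8 fell, with a median of -1.06 and a summed level of 2088 against 4128. Gm3233 was at 194 in OAD, 455 in YAD, 3.22 in OTD and 3.04 in YTD. On chromosome 7, 4 of 4 were lower and 2 fell. Gm10153 was at 1.10 in OAD, about 7.48 fragments, and 41.2 in YAD, and its change of -4.33 was the largest in size among the genes compared. Gm4553 was at 86.9 and 461, a change of -2.39. On chromosome 16 the 3 genes had a median of 0.37. Named Krtap genes, which the rule left out, had medians of the same sign on chromosomes 11, 10 and 7. These were 0.73 over 23 genes on chromosome 11, -0.88 over 2 on chromosome 10 and -1.29 over 5 on chromosome 7. On chromosome 16 the 24 named Krtap genes had a median of 0.05, with 12 higher and 12 lower. With the 33 genes left out too, 49 genes were higher and 46 lower.

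**Figure D4:**
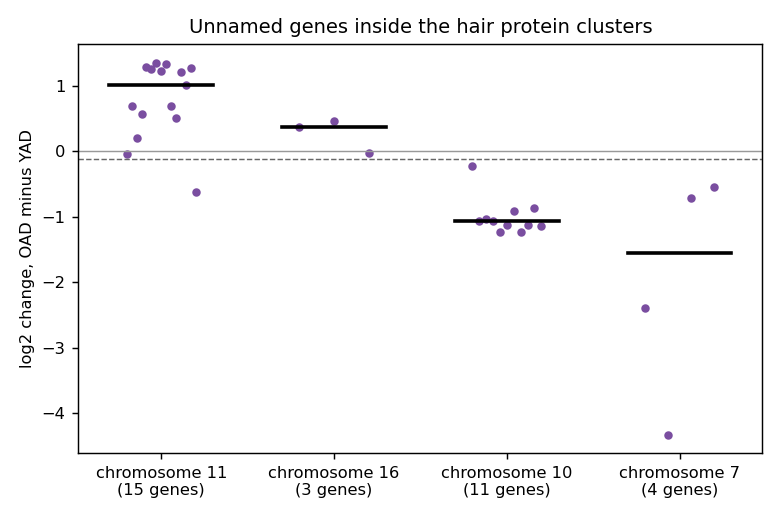
Change in log2(rescaled FPKM + 1), OAD minus YAD (y axis), of the 33 genes with Gm names inside or just beside KAP clusters, 1 point a gene, by chromosome (x axis). Bars are medians, the solid grey line is 0 and the dashed line the median of all genes. Chromosome 11 lies mostly above 0, with a median of 1.02, and chromosomes 10 and 7 wholly below.

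Metallothioneins bind zinc and copper and buffer metal stress. All 4 were lower in OAD and 2 fell. Mt2 was at 2043 in OAD, 4223 in YAD, 507 in OTD and 349 in YTD, a change of -1.05, and -0.92 without rescaling. Mt1 was at 1350 and 2335 in anagen, Mt4, the form of stratified epithelia, at 3379 and 5631, and Mt3 at 2.79 and 12.3, a change of -1.81 on about 7.56 fragments in OAD. The zinc importer Slc39a10 was lower with -0.69, and the 12 genes of the list had a median of -0.25.

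Few immune genes reached the FPKM minimum. Macrophage genes were lower in 7 of 7, with a median of -0.39 and none past the threshold, against 0.49 in telogen. The complement subunits C1qb and C1qc, made by macrophages, were at 27.8 and 23.5 in OAD and 44.7 and 37.7 in YAD. MHC class II genes were lower in 5 of 5 with a median of -0.28, against 0.82 and 5 of 5 higher in telogen. MHC class I genes went the other way, with 12 of 13 higher, 2 that rose and a median of 0.24. H2-Q7 was at 17.9 in OAD, 6.38 in YAD, 76.8 in OTD and 33.5 in YTD, a change of 1.36, and H2-Q6 at 15.9 in OAD and 7.40 in YAD, a change of 1.01. They are near-identical neighbours, so fragments could be split between them. S100a9 and S100a8, whose proteins form calprotectin, rose. S100a9 was at 21.1 in OAD, 2.60 in YAD, 20.3 in OTD and 0.977 in YTD, a change of 2.62, and S100a8 at 244, 117, 215 and 170, a change of 1.06. The neutrophil granule genes Ngp and Camp were at 0.757 and 0.782 in OAD and at 0 and 1.84 in YAD. Of the complement genes, C4b and C3 were higher with 0.68 and 0.62. Genes of chemokines and their receptors were higher in 6 of 7, with a median of 0.38 and none past the threshold. Of the 34 in that list 27 were under the FPKM minimum. Mast cell genes were lower in 3 of 3, with a median of -0.40. No T cell gene reached the FPKM minimum.

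No gene of the adipocyte, lipid and cholesterol lists passed the threshold. All 16 adipocyte identity genes compared lay above the median of all genes, with a list median of 0.19. Adrb3, the receptor through which noradrenaline starts lipolysis, was at 23.7 in OAD, 11.5 in YAD, 38.0 in OTD and 26.1 in YTD, a change of 0.99, and 1.05 without rescaling. Cfd, adipsin, was at 2023 and 1383 in anagen, a change of 0.55. Lipid synthesis had a median of -0.08, with Elovl3, a fatty acid elongase, lowest at -0.78. Lipid breakdown had a median of 0.03, with Pdk4, which spares glucose, highest at 0.68. Cholesterol synthesis had a median of 0.04, with 15 of 19 higher and Cyp51 highest at 0.35.

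Vessels, nerve, muscle and blood were present in both. Blood endothelium genes had a median of 0.12, with Emcn, an endothelial sialomucin, highest at 0.68. Angiogenesis genes had a median of -0.10, with 7 of 12 lower, 6 of them below the median of all genes. The 2 that fell were Ece1 and Aldh1a3. Schwann cell genes had a median of -0.09 over 7 genes. Skeletal muscle genes had a median of 0.20 with 18 of 25 higher, against -0.42 in telogen, and held 3.93% of the rescaled sum in OAD and 3.27% in YAD. Red blood cell genes were higher in 4 of 4 with a median of 0.61. Leaving out muscle and red cell genes changed the counts to 56 higher and 58 lower.

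Genes of the early response, which rise within minutes of a stimulus, had a median of 0.32, with 19 of 25 higher and 2 that rose, against 1.64 and 25 of 25 higher in telogen. Atf3 was at 16.01 in OAD, 5.35 in YAD, 72.6 in OTD and 16.7 in YTD, a change of 1.42, and Fos at 35.02, 15.8, 229 and 18.3, a change of 1.10. Heat shock and endoplasmic reticulum stress lists had medians of -0.10 and -0.10, senescence -0.17, antioxidant 0.02, the circadian clock -0.10, glycolysis 0.04, the cytosolic ribosome -0.04 over 72 genes and nuclear oxidative phosphorylation 0.00 over 72. In the antioxidant list Gpx2, a glutathione peroxidase of epithelia, rose with 1.04. The lists together held 749 of the genes compared, of which 11 rose and 23 fell, against 55 (0.614%) and 58 (0.648%) of all 8952. The lists were chosen with earlier results of these data known, so nothing is read from these counts.

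Among the largest rises outside the lists were Dock3, a guanine exchange factor known from neurons, at 13.9 in OAD and 1.51 in YAD, a change of 2.57, and Idi2, an isoprenoid isomerase, at 10.7 and 1.28, a change of 2.36. Avp, the gene of vasopressin, was at 30.01 in OAD and 8.01 in YAD, and Cytl1, a cytokine-like protein, at 33.5 and 9.03. Defb6, a beta-defensin, was at 33.9 and 10.2. Nnt, a mitochondrial transhydrogenase, was at 18.3 in OAD, 6.00 in YAD, 52.7 in OTD and 36.8 in YTD, a change of 1.46. Ggact, which overlaps Pcca on the other strand, was at 33.2 and 10.95. Of the genes without a symbol, 7 rose and 2 fell.

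Placed among all 4 libraries, 31 of the 55 genes that rose and 31 of the 58 that fell were higher in both anagen libraries than in both telogen libraries, which is 56.4% and 53.4%, against 59.7% of all genes compared. In 27 and 21 of them both telogen levels were under 5. In 10 of the genes that fell, OAD lay below both telogen libraries while YAD did not, among them Sfrp2, Vcan, Col14a1, Fgf7, Loxl2 and Postn. That is 17.2% of those that fell, against 4.27% of all genes compared. A low OAD level is what the call selects, which favours this order by itself, so nothing is read from the higher share. Likewise YAD lay below both telogen libraries while OAD did not in 7 of the 55 that rose, against 91 of the 8952 genes. In 14 of the genes that fell, both anagen libraries lay below both telogen libraries, as in Col1a1 and Col3a1, which is 24.1%, against 25.4% of all genes compared. The telogen comparison shares no library with the anagen comparison. Across the 8952 genes the changes with age in the phases had a Pearson r of 0.07 and a Spearman rho of 0.002, as a description over genes, which are not independent. Of the 55 genes that rose in anagen, 35 were above 0 in telogen and 15 below, and of the 58 that fell, 30 were below 0 and 28 above, while 57.7% of all genes were above 0.

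**Figure D5:**
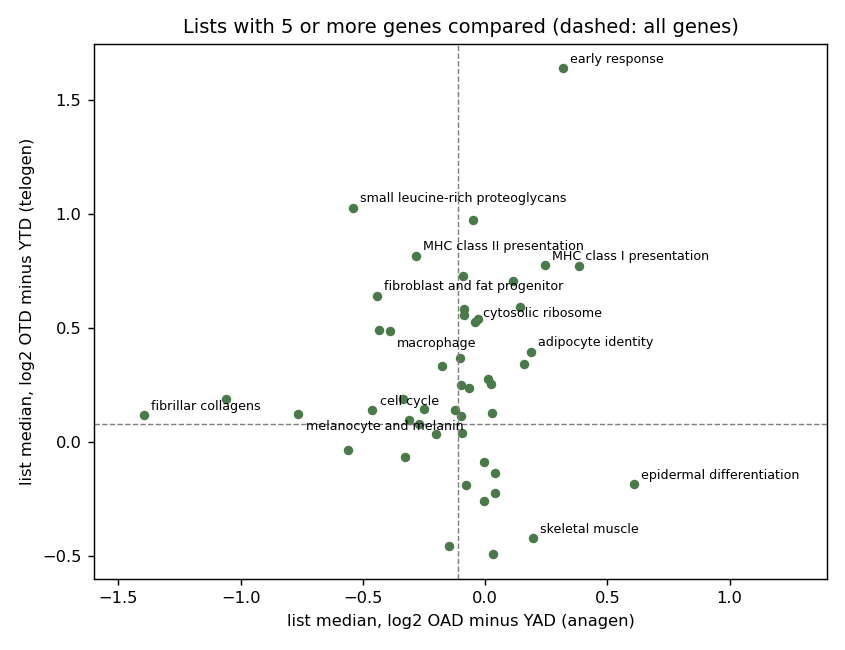
List medians of the change with age in anagen (x axis, OAD minus YAD) and telogen (y axis, OTD minus YTD), in log2 units, for the 48 lists with 5 or more genes compared. Dashed lines are the medians of all genes. The fibrillar collagens stand to the left at -1.40 in anagen and 0.12 in telogen, and the early response at the top with 1.64 in telogen.

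Calls were more frequent among short genes and among genes with a low level. Of 931 genes with features under 500 bp, 3.87% were called. The share was 0.46% of 3285 genes from 1000 to below 2000 bp and 0.90% of 2441 genes of 2000 bp or more. Of 313 genes with a mean level under 10, 8.31% were called. The share was 0.56% of 3216 genes from 30 to below 100 and 1.96% of 1375 genes at 100 or more. The depth was estimated roughly as 24700000 fragments in OAD and 24600000 in YAD. At that depth the lower library of a called gene held a median of 158 fragments, and 13 called genes held fewer than 20.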

How the data were processed

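RNA of pooled dWAT was sequenced on an Illumina instrument. The authors deposited FPKM values per gene with GRCm38 positions. The submitters' processing notes name bcl2fastq and TopHat2. The counting tool, annotation and scaling are not given in the sources used here. Of the listed features, 97.0% have a length that is a multiple of 3, as coding lengths do.

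Tables were joined on the gene identifier, and 21750 of 22913 genes were matched to a symbol. Rescaling, the FPKM minimum of 5, the pseudocount of 1 and the threshold of 1 are described above. With 1 library per group no test was run, and no spread between replicates is known. The members and lists were chosen with earlier results of these data known. Named genes were the 20 largest rises and falls with a symbol, up to 4 members with the largest change in each of 55 lists, 22 genes taken from the study's text and from an earlier description of these data, and cell type markers. Depth was estimated from the lowest values of FPKM times length in features of 4000 to 8000 bp, from 19 to 29 features a library. An estimate from shorter features gave no clear peak and was replaced, so fragment numbers are rough and cover counting error only. The alternatives were other pseudocounts, filters, scalings and thresholds. The calculation of the change was tested on 2 libraries simulated from YAD with counting error only. Genes well above the FPKM minimum were changed by known folds beyond the threshold. That test covers neither genes near these limits nor the spread between samples. Python 3.11.15, numpy 2.4.6, pandas 2.3.3 and matplotlib 3.10.9 were used.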

Additional observations from a re-analysis of the deposited data

Results flagged for a closer look

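Genes on X and Y were outside the comparison, and one of them stood apart. Gm26992, which overlaps Xist, Tsix and Tsx on chromosome X, was deposited with an FPKM of 15.96 for OAD against 0.590 for YAD and listed at 0 in OTD and YTD. The Y-linked genes Ddx3y, Eif2s3y, Kdm5d and Uty were lower in OAD than in YAD, with 7.39 against 12.3, 24.7 against 34.2, 1.44 against 2.84 and 1.49 against 3.88. The sex of the mice is not given in the sources used here, the pools may differ in it, and the part of these differences in the changes of other genes was not tested.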

How the results depend on the processing

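Of the counts of 55 genes higher and 58 lower, a minimum FPKM of 1 gave 124 and 159, no filter 149 and 197, a minimum of 5 in both libraries 26 and 37, and a threshold of 1.5 gave 16 and 19. A minimum of 5 after rescaling gave 94 lower. FPKM as deposited gave 34 lower and median-of-ratios rescaling 31 lower, with medians of all genes of 0.0069 and 0.024. Leaving out features under 500 bp, an alternative chosen after seeing the data, gave 33 higher. Dropping no genes before rescaling gave 54 higher and 80 lower, with a median of -0.21. It kept 43 of the 55 higher genes past the threshold and left others, among them Fos, Gpx2, H2-Q6 and S100a8, short of it. The kallikrein list turned from a median of 0.90 to -0.017 without a filter, and the fibrillar collagens went from -1.40 to -0.93. Of the 2540 values of 220 named genes under the alternatives, 23 came short of the threshold and 32 newly passed it. None of the genes past the threshold changed sign. They could not have under another filter or pseudocount, and the scalings moved the median of all genes by far less than the threshold. All 55 and all 58 genes were still past the threshold with pseudocounts of 0.1 and 0.01. This had to be so, because a smaller pseudocount enlarges every change. Without replicates, the spread between samples of a group is unknown. Values at low levels are limited by depth. No paired analysis was possible because each group has 1 library and the result comes from no test.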
